A study of Mus musculus with 8 samples.

Results

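Collagen genes were examined in lung tumour nodules of mice treated with JQ1, with an anti-PD-1 antibody, or with both. The family was taken as every row of the count table whose symbol is Col, a number, a and a second number, which gave 44 genes of 52459 symbols. RNA came from 8 libraries, 2 in each of 4 groups: the combination of JQ1 and anti-PD-1, JQ1 alone, anti-PD-1 alone, and vehicle. All groups shared the same genetically engineered model, labelled KrasTrp53, on a mixed background, so the vehicle nodules carry the same engineered tumour alleles as the treated ones. The sources used here do not give how those alleles were switched on, the mice's age, or the doses and times of treatment. JQ1 blocks the bromodomains of BET proteins, which read acetylated chromatin, and the antibody blocks PD-1, a brake on T cells. The comparisons are of each treatment, and of both given together, with vehicle.

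Collagens are the main structural proteins of the extracellular matrix, and each molecule is a rope of 3 chains made from 1 or more genes. Fibrillar collagens form the banded fibres that stiffen tumour stroma, and they are made largely by fibroblasts and smooth muscle cells. Type IV collagens form the sheet under epithelium and endothelium, which in the lung lies between air and blood. FACIT collagens decorate fibrils, beaded filaments of type VI link fibrils to cells, and multiplexins, network, transmembrane and anchoring collagens serve narrower sites.

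Of the 44 genes, 31 had enough counts to test and 13 did not. The tested members were 10 of 11 fibrillar, 6 of 6 basement membrane, 3 of 6 beaded filament, 4 of 9 FACIT, 3 of 3 network, 2 of 2 multiplexin, 2 of 4 transmembrane genes, and 1 of 3 in the class of anchoring fibril and other collagens. Members that passed the filter had at least 47 counts over the 8 libraries (Col24a1), and the others at most 38 (Col28a1). Col6a4, Col9a1, Col9a2, Col19a1 and Col22a1 had 0 counts in all 8 libraries. Of cartilage collagens, Col2a1, the main cartilage fibril chain, had 8 counts in all and Col9a3 had 5, while Col11a2 (326), Col11a1 (87) and Col10a1 (60) passed the filter. Col17a1, the hemidesmosome collagen of basal epithelium, had 2 counts.

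The libraries differed in depth and in composition. Total counts ranged between 2719816 in combination replicate 1 and 15224108 in vehicle replicate 2. Protein-coding genes took 44.9% ± 3.72 of the counts in the combination, 63.5% ± 5.16 with JQ1, 72.5% ± 0.423 with anti-PD-1 and 73.4% ± 1.15 in vehicle (SD, n = 2 each), and the RNA Gm42418 took 43.9%, 26.1%, 20.6% and 19.8% on average in the same groups. By Xist and Y-linked counts, combination replicate 1, JQ1 replicate 1 and anti-PD-1 replicate 2 were female, and the other 5 were male. Nothing in the labels states that libraries of a group are from separate animals. The combination, JQ1 and anti-PD-1 groups each held a female and a male library, so the libraries of each pair came from different animals. Both vehicle libraries were male, so sex does not tell whether they came from separate animals. P-values measure the spread between these libraries, part of which may be technical. Values below are CPM, counts scaled to library size and TMM factor, with libraries in replicate order. In bulk tissue, fewer cells of a type and less RNA per cell cannot be told apart.

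The promoters of Col4a5 and Col5a1, which were called, are shown, each beside a gene called in none of the 6 comparisons with the filter on low counts: Col4a5 beside its neighbour Col4a6 on the opposite strand, and Col5a1 beside the fibrillar gene Col3a1. RefSeq promoter entries (GRCm38.p6) were matched for 35 of the 44 members, and Col1a1 and Col12a1 were not among them. Each run is 5′ to 3′ on the gene's own strand and lies upstream of the annotated start. Capitals mark CCAAT (the CCAAT box), GGGCGG (the GC box) or TATAAA (the TATA box), searched on both strands, and none of the marked motifs overlap. Col4a5 is chrX:141475169-141475384 (+), Col4a6 is chrX:141474077-141474326 (-), Col5a1 is chr2:27886175-27886424 (+) and Col3a1 is chr1:45311288-45311537 (+).
Col4a5: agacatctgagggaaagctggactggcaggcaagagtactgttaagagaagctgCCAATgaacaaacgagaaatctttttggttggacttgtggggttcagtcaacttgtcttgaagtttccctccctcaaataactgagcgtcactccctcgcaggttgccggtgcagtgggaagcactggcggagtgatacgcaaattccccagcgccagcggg
Col4a6: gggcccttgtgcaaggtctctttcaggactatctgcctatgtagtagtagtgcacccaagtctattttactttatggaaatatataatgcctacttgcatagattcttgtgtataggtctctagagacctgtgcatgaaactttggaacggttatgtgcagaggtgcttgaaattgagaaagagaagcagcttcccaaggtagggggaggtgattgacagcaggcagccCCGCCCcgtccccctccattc
Col5a1: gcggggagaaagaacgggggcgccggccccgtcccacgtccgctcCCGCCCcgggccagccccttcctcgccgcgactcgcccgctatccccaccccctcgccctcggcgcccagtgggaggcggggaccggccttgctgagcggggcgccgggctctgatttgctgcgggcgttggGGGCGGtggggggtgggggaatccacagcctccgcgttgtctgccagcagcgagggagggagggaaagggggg
Col3a1: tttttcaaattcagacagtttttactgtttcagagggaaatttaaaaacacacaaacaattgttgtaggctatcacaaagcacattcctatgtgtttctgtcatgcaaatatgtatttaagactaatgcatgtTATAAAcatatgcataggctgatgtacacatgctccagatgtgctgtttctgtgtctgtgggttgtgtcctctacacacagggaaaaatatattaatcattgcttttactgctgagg
Col4a5 held 1 CCAAT and neither other motif, and 30.5% of 32851 RefSeq promoters held CCAAT in a window of the same 216 bases. Col4a6 held 1 GGGCGG on the other strand and Col5a1 held 2, 1 on each strand, against 32.7% of promoters with at least 1 in 250 bases. Col3a1 held 1 TATAAA, found in 12.4% of promoters. GC content was 76.4% for Col5a1, 52.3% for Col4a5, 47.6% for Col4a6 and 35.2% for Col3a1. A match is a description of letters, and the absence of one says only that those letters are not in this window.

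Per kilobase of coding length, Col1a1 was the most abundant collagen, with a mean of 156.5 CPM per kb over the 8 libraries. Col4a1 followed at 45.4, Col4a2 at 38.4, Col1a2 at 27.0, Col6a1 at 19.6, Col5a2 at 14.3, Col3a1 at 11.9 and Col6a2 at 11.8 CPM per kb. The least abundant tested member was Col24a1, at 0.0864 CPM per kb. Probes captured these libraries, so a level between genes also depends on how well each transcript was captured.

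Together the family took 0.0975% ± 0.000386 of all counts in the combination, 0.188% ± 0.00242 with JQ1, 0.233% ± 0.057 with anti-PD-1 and 0.219% ± 8.47e-05 in vehicle (SD, n = 2 each). On the CPM scale the family summed to 1119 and 1447 in the combination, 1782 and 1586 with JQ1, 2484 and 1870.1 with anti-PD-1, and 2106 and 1911 in vehicle. A share of all counts also depends on the protein-coding share, which was lower in the combination and JQ1 libraries than in the others. On the CPM scale the combination libraries lay below all others, and the JQ1 libraries lay below those of anti-PD-1 and vehicle. The nearest values there were 1782 with JQ1 and 1870.1 with anti-PD-1. Most of the difference in the sum lay in the fibrillar class, which is largely Col1a1.

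Fibrillar collagens gave 36.4% and 30.2% of the family's counts in the combination and 47.8% and 41.3% with JQ1, against 69.7% and 56.5% with anti-PD-1 and 63.6% and 57.9% in vehicle. Basement membrane collagens gave 51.4% and 40.3% in the combination and 35.3% and 47.0% with JQ1, against 19.1% and 21.8% with anti-PD-1 and 22.2% and 29.9% in vehicle. In both classes the 4 libraries with JQ1 did not overlap the 4 without it. The plot of class shares shows this exchange library by library. In summed CPM the fibrillar class was at 422 ± 20.2 in the combination, 753 ± 139 with JQ1, 1393 ± 477 with anti-PD-1 and 1223 ± 165 in vehicle. The basement membrane class was at 579 ± 6.34, 687 ± 82.5, 441 ± 48.0 and 519 ± 73.6 in those groups (SD, n = 2 each). Shares add to a fixed total, so a lower fibrillar share raises the others even at unchanged counts, while the CPM sums do not have that tie.

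**Figure D1:**
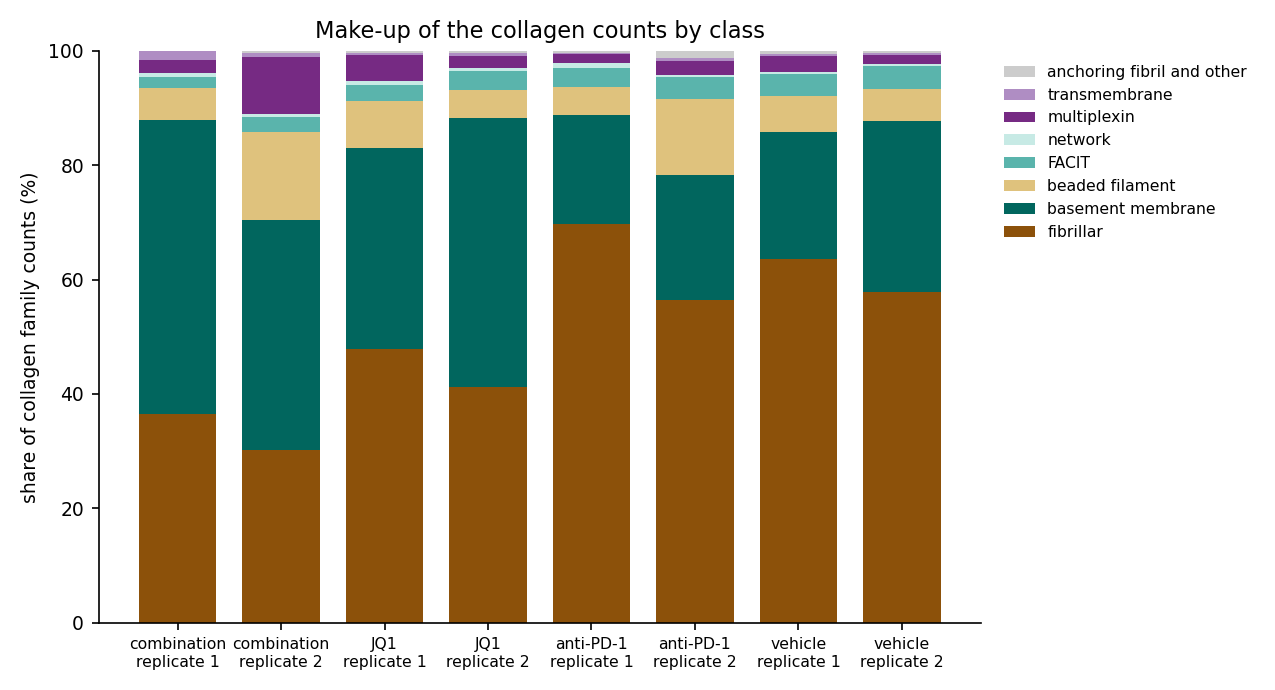
Share of the collagen family's counts in each of 8 classes (%, stacked bars), 1 bar per library in 4 treatment groups. Fibrillar collagens (brown, bottom) take 30.2% to 47.8% in the 4 libraries with JQ1 and 56.5% to 69.7% in the 4 without it.

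Against vehicle, 3 collagens fell in the combination and none rose. Col1a1, the main chain of type I collagen, fell 3.77-fold, Col4a5, a type IV chain, fell 3.37-fold, and Col12a1, the FACIT collagen on the surface of type I fibrils, fell 3.41-fold. That is 3 of 31 tested members (edgeR's quasi-likelihood test, Benjamini-Hochberg adjusted p under 0.05), where 4.8% of all 14085 genes were called and 2.36% fell. The family's median log2 fold change was −0.21, or −0.18 without Col11a1 and Col24a1, which had at most 3 counts over both combination libraries, beside 0.07 for all genes tested. For 13 members both combination libraries lay below both vehicle libraries and for 6 above, where 29.1% and 29.5% of all genes did so.

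JQ1 averaged over both backgrounds (combination and JQ1 libraries against anti-PD-1 and vehicle libraries) called 5 of 31 members, where 8.28% of all genes were called. Of these, 4 fell (Col1a1, Col4a5, Col12a1 and the minor fibril chain Col5a1) and 1 rose (Col4a1). Over all genes 4.05% fell and 4.22% rose. The family's median was −0.41, or −0.39 without those low members, beside 0.06 for all genes. All 4 libraries with JQ1 lay below all 4 without it for 7 members and above for 2, where 9.35% and 10.2% of genes did so. This comparison and that of the combination with vehicle share 4 libraries, so their values are given side by side and are not independent.

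**Figure D2:**
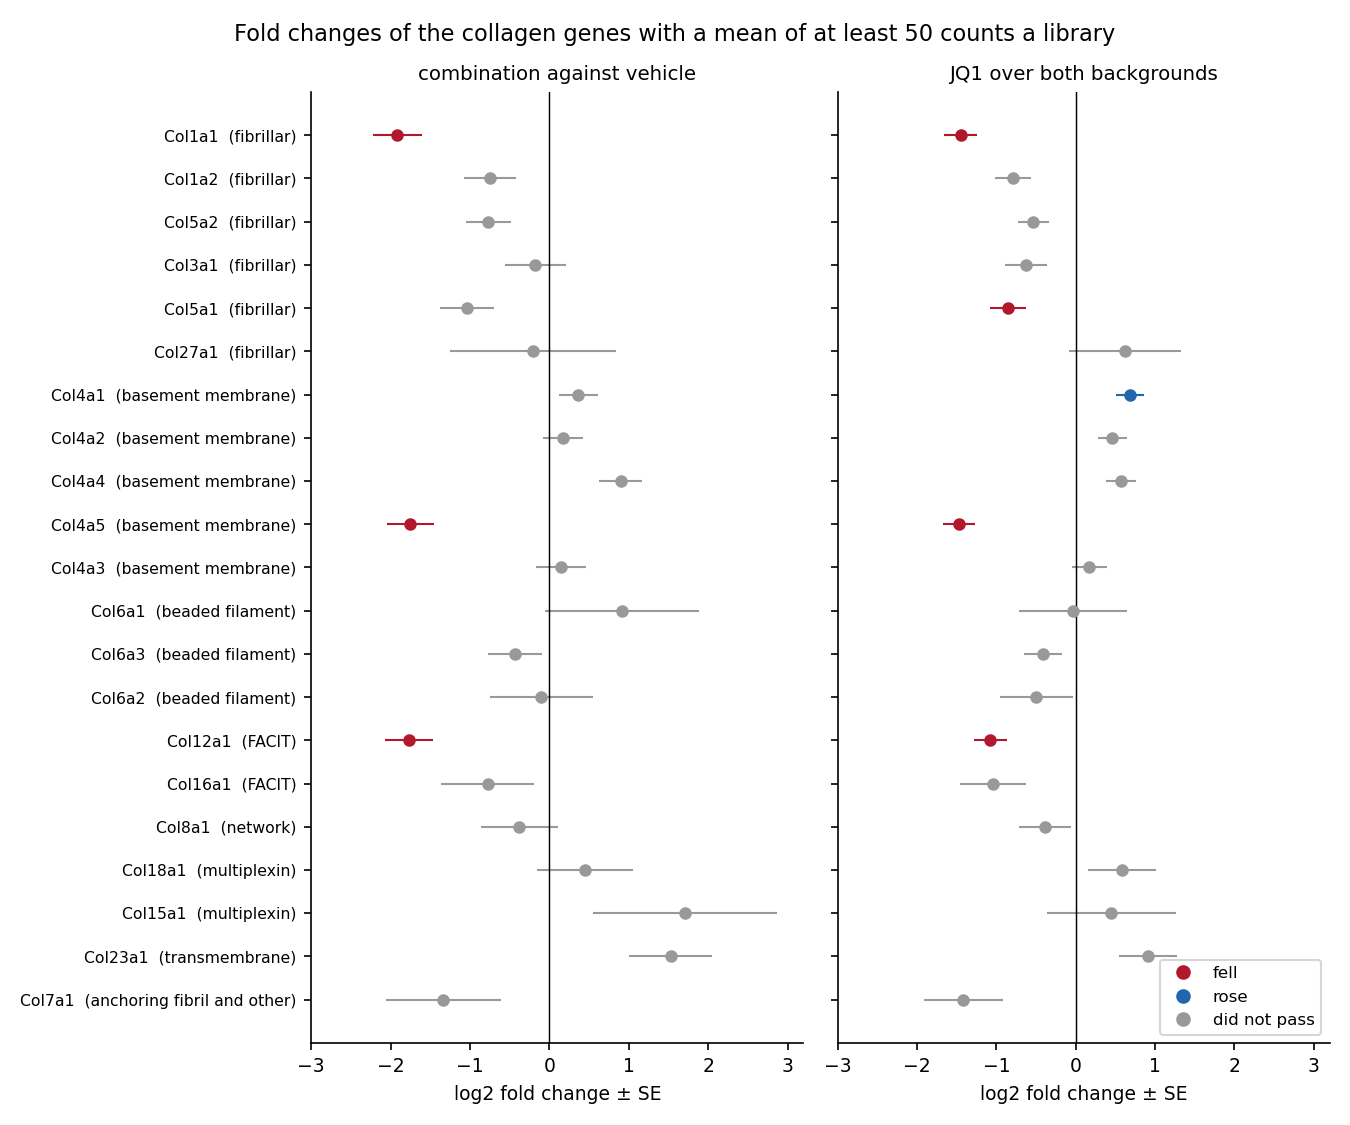
Log2 fold change ± SE (x axis, edgeR) of the 21 tested collagen genes with a mean of at least 50 counts a library, for the combination against vehicle (left) and for JQ1 over both backgrounds (right). Red marks genes that fell, blue a gene that rose and grey those that did not pass: Col1a1, Col4a5 and Col12a1 fell in both panels, and Col5a1 (fell) and Col4a1 (rose) are called on the right only.

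Among fibrillar collagens, Col1a1 carried the largest counts. It stood at 250.4 and 256 CPM in the combination, 559.5 and 461 with JQ1, 1257 and 765 with anti-PD-1, and 1088 and 821 in vehicle. The combination libraries were lowest, the JQ1 libraries intermediate, and no library with JQ1 reached any without it. Col1a1 fell by 1.92 on the log2 scale in the combination against vehicle (SE 0.305, adjusted p = 0.0178 in edgeR) and by 1.45 over both backgrounds (SE 0.212, adjusted p = 0.0107). Its share of the family's counts was 22.4% and 17.7% in the combination, 31.4% and 29.1% with JQ1, 50.6% and 40.9% with anti-PD-1, and 51.7% and 43.0% in vehicle.

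Col1a2, the partner chain in type I collagen, was lower too but did not pass. It was at 66.1 and 75.8 CPM in the combination, 104.5 and 78.5 with JQ1, 213 and 113 with anti-PD-1, and 113 and 125 in vehicle. No library with JQ1 reached one without it, with the nearest values at 104.5 and 113 CPM. The log2 fold change was −0.74 (SE 0.325, adjusted p = 0.171 in edgeR) in the combination against vehicle and −0.79 (SE 0.228, adjusted p = 0.0576) for JQ1 over both backgrounds. In the latter comparison Col1a2 was called as lower under RLE factors, with no filter on low counts, and by DESeq2.

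Col5a1, a chain of the type V collagen that nucleates type I fibrils, was at 10.9 and 15.8 CPM in the combination, 22.65 and 16.04 with JQ1, 35 and 26.4 with anti-PD-1, and 27.5 and 28.3 in vehicle. The libraries with JQ1 all lay below those without. Col5a1 fell by 0.85 on the log2 scale over both backgrounds (SE 0.232, adjusted p = 0.049 in edgeR), close to the threshold, and was at −1.04 in the combination against vehicle (SE 0.335, adjusted p = 0.0877). Its call was lost without any 1 of the 8 libraries, and with sex as a term (adjusted p = 0.0744).

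Its partner Col5a2 was at 42.5 and 34.6 CPM in the combination, 78.8 and 58.8 with JQ1, 89.0 and 79.8 with anti-PD-1, and 57.0 and 73.7 in vehicle. Only the combination stood below vehicle without overlap, at a log2 fold change of −0.77 (SE 0.281, adjusted p = 0.12 in edgeR). Col3a1, the type III collagen of pliable tissue such as vessel walls, behaved differently in level: 30.7 and 42.5 CPM in the combination, 52.75 and 31.0 with JQ1, 116 and 60.85 with anti-PD-1, and 37.65 and 45.6 in vehicle. Both anti-PD-1 libraries lay above all others, while the combination and JQ1 libraries overlapped vehicle.

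The remaining tested fibrillar genes were Col27a1, Col11a2, Col5a3, Col11a1 and Col24a1, of which the first 3 averaged 3.22 to 7.12 CPM. Col27a1 was at 27.2 CPM in JQ1 replicate 1 and between 1.83 and 6.34 CPM in the other 7 libraries. Col11a2, at 2.53 and 2.8 CPM in the combination and 1.36 and 1.4 with JQ1, against 8.87 and 2.91 with anti-PD-1 and 3.9 and 3.73 in vehicle, lay lower in every library with JQ1 but did not pass (−1.30, adjusted p = 0.0681 in edgeR, JQ1 over both backgrounds). Col11a1 had 0 and 2 counts in the combination and 6 and 27 in vehicle, and Col24a1 had 0 and 0 against 4 and 7, too few to give a fold. Of the other 8 tested fibrillar genes, 8 had a negative log2 fold change in the combination against vehicle (median −0.62), where 6701 of all 14085 genes were negative, and 1 passed. For JQ1 over both backgrounds 7 of the 8 were negative (median −0.71), where 6630 of 14085 genes were, and 2 passed.

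**Figure D3:**
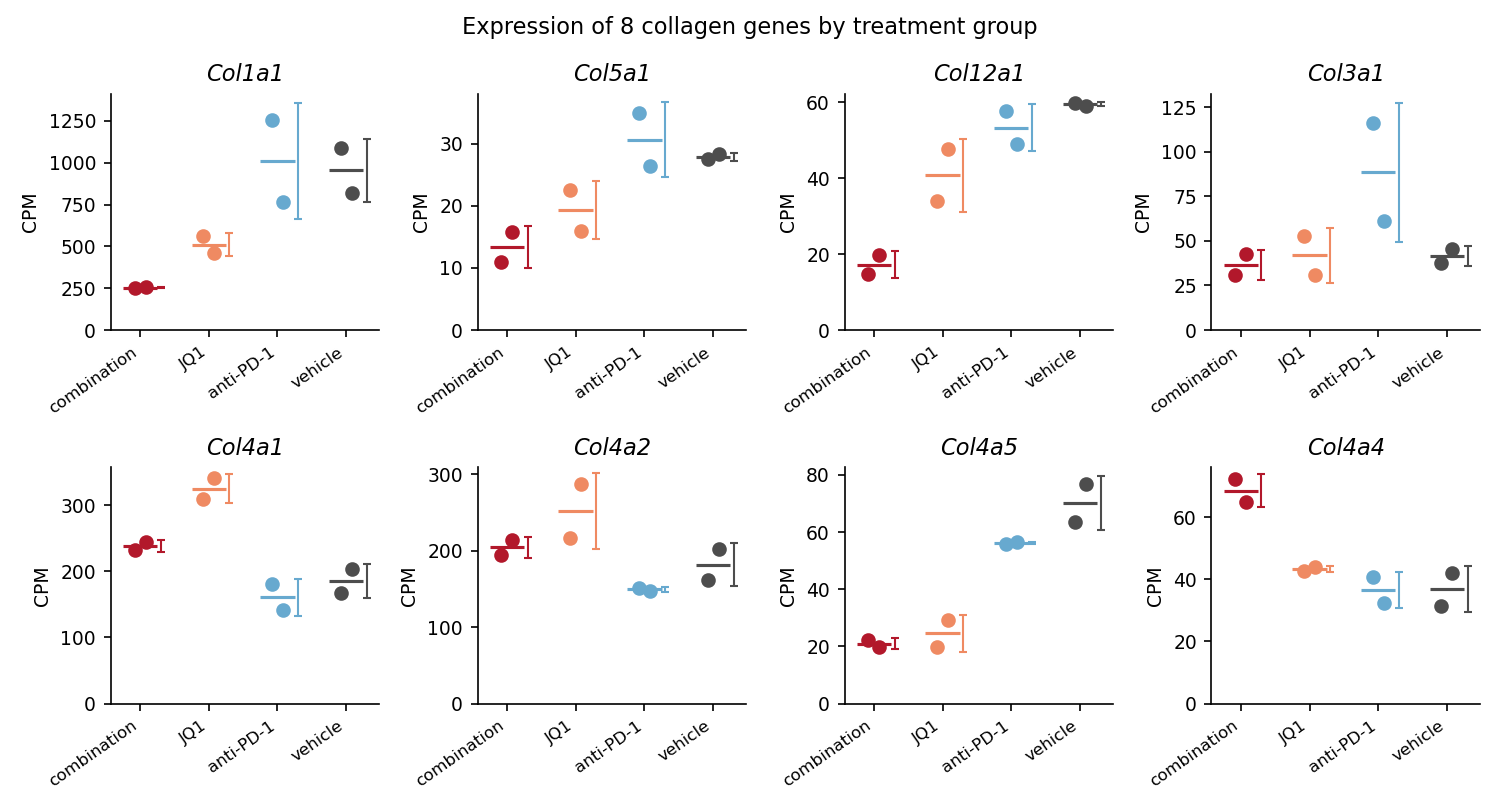
CPM (y axis, from 0) of 8 collagen genes in the 4 groups, with points for libraries, lines for group means and bars beside them for SD (n = 2). Col1a1, Col5a1, Col12a1 and Col4a5 are lowest where JQ1 was given, Col4a1 and Col4a4 are higher there, and Col3a1 is highest with anti-PD-1 alone.

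Basement membrane collagens did not move as one class. Col4a1 and Col4a2 form the type IV network found in nearly every basement membrane, and the genes lie head to head on chromosome 8 with a 22-base overlap of their annotated ends, so reads from those bases cannot be told apart without strand. Col4a1 was at 232 and 245 CPM in the combination, 309.5 and 341 with JQ1, 181 and 141 with anti-PD-1, and 167 and 204 in vehicle. All libraries with JQ1 lay above all without it. Col4a1 rose by 0.69 on the log2 scale over both backgrounds (SE 0.176, adjusted p = 0.0429 in edgeR), and was at 0.36 in the combination against vehicle (SE 0.249, adjusted p = 0.362). The call was lost without any 1 library other than combination replicate 1, with the log2 value between 0.59 and 0.77.

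Col4a2 was at 194 and 214 CPM in the combination, 216 and 287 with JQ1, 151 and 147 with anti-PD-1, and 162 and 202 in vehicle. The combination overlapped vehicle, as combination replicate 1 lay under vehicle replicate 2. Both JQ1 libraries lay above both vehicle libraries, and both anti-PD-1 libraries lay below them. JQ1 over both backgrounds gave 0.46 (SE 0.18, adjusted p = 0.115 in edgeR).

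Col4a3, Col4a4 and Col4a5 chains assemble into the type IV network of mature alveolar and kidney basement membranes. Col4a3 and Col4a4 lie head to head on chromosome 1, 71 bases apart, and Col4a5 and Col4a6 head to head on chromosome X, 1308 bases apart. Col4a5 was at 22.3 and 19.6 CPM in the combination, 19.9 and 29.2 with JQ1, 55.8 and 56.5 with anti-PD-1, and 63.6 and 76.9 in vehicle. The highest library with JQ1 was at 29.2 CPM and the lowest without it at 55.8 CPM. Col4a5 fell by 1.75 on the log2 scale in the combination against vehicle (SE 0.297, adjusted p = 0.0222 in edgeR) and by 1.47 over both backgrounds (SE 0.206, adjusted p = 0.0107). Of the mice, females gave 22.3, 19.9 and 56.5 CPM in the combination, JQ1 and anti-PD-1, and males of those groups gave 19.6, 29.2 and 55.8 CPM.

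Col4a3 and Col4a4, the other chains of that network, did not follow Col4a5. Col4a3 was at 53.5 and 37.1 CPM in the combination, 38.4 and 43.1 with JQ1, 43.5 and 27.6 with anti-PD-1, and 38.4 and 42.9 in vehicle, with all groups overlapping (0.17, SE 0.221, adjusted p = 0.614 in edgeR, JQ1 over both backgrounds). Col4a4 was at 72.4 and 64.8 CPM in the combination, 42.7 and 44.1 with JQ1, 40.7 and 32.4 with anti-PD-1, and 31.5 and 42.0 in vehicle. Its libraries with JQ1 all lay above those without, narrowly for JQ1 alone, and the log2 value in the combination against vehicle was 0.90 (SE 0.275, adjusted p = 0.0778 in edgeR). With a minimum mean count of 50, which left 8576 genes to test, Col4a4 was called as higher in the combination against vehicle (1.03, adjusted p = 0.0487 in edgeR) and over both backgrounds (0.70, adjusted p = 0.0449). Col4a6 was low, with 1 and 21 counts in the combination, 17 and 11 with JQ1, 36 and 21 with anti-PD-1, and 63 and 70 in vehicle. Its log2 value in JQ1 against vehicle was −1.69 (SE 0.659, adjusted p = 0.452 in edgeR). It was at −0.98 in the combination against vehicle (adjusted p = 0.368) and at −0.85 for JQ1 over both backgrounds (adjusted p = 0.237). In CPM both libraries of each treated group lay below both vehicle libraries, as they did for Col4a5.

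Ratios of chain counts within a library need no scaling between libraries and were added after the values were seen. For each of 10 pairs the 4 libraries with JQ1 were compared with the 4 without by a two-sided exact permutation test of log2 ratios, which cannot give a p below 0.0286. Col4a5 to Col4a1 was 0.0645 to 0.0968 with JQ1 and 0.309 to 0.401 without, a log2 difference of −2.17. Col4a5 to Col4a3 was 0.42 to 0.678 with JQ1 and 1.28 to 2.05 without, a difference of −1.66. Col1a1 to Col1a2 was 3.37 to 5.87 with JQ1 and 5.91 to 9.61 without, a difference of −0.66, and here JQ1 replicate 2 and anti-PD-1 replicate 1 were all but equal. These 3 pairs did not overlap and reached the smallest exact p of 0.0286, which is 0.0952 after Benjamini-Hochberg adjustment over the 10 pairs. For Col4a5 to Col4a1 that outcome was fixed in advance, because Col4a5 lay lower and Col4a1 higher in every library with JQ1. Its p therefore adds nothing to the values of the 2 genes. For the other 7 pairs the ranges overlapped, and exact p-values were 0.0857 or more: Col4a1 to Col4a2, for example, was 1.14 to 1.43 with JQ1 and 0.959 to 1.2 without.

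**Figure D4:**
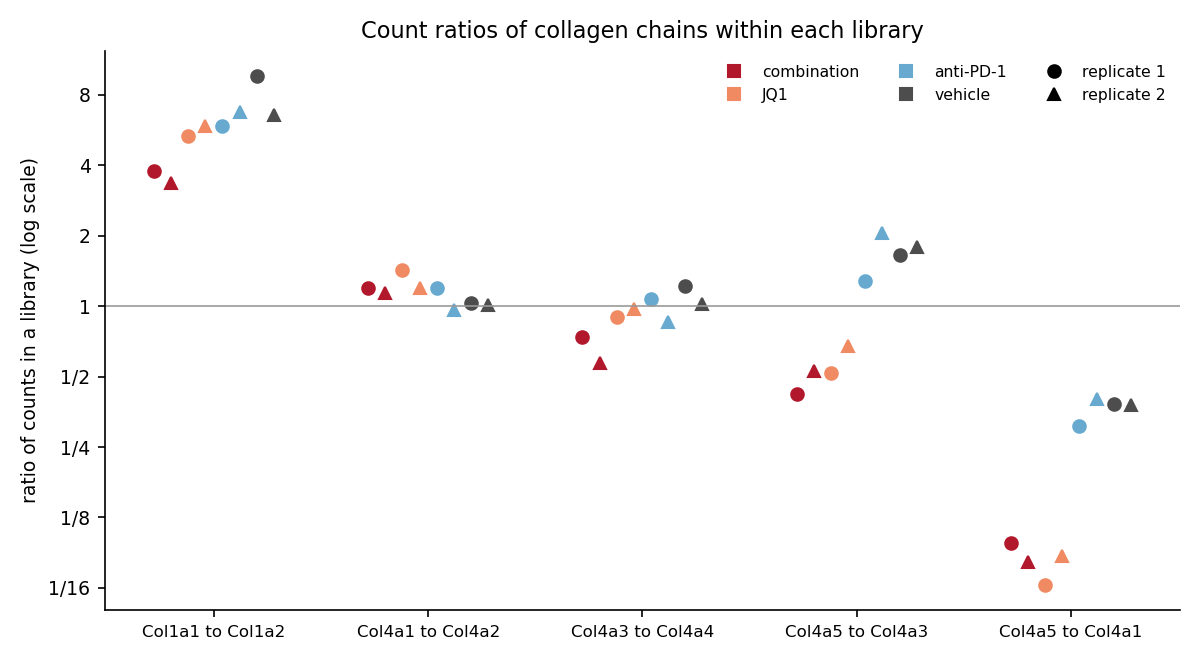
Ratio of the counts of 2 collagen chains in each library (y axis, log scale) for 5 pairs, with colours for the 4 groups and symbols for replicates. Col4a5 to Col4a1 and Col4a5 to Col4a3 separate the libraries with JQ1 (0.0645 to 0.0968 and 0.42 to 0.678) from those without (0.309 to 0.401 and 1.28 to 2.05), while Col4a1 to Col4a2 and Col4a3 to Col4a4 overlap.

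FACIT collagens attach to fibril surfaces. Col12a1 was at 14.7 and 19.8 CPM in the combination, 33.9 and 47.6 with JQ1, 57.8 and 48.9 with anti-PD-1, and 59.9 and 59.1 in vehicle. The combination libraries were well apart from all others, and JQ1 replicate 2 lay just under the lower anti-PD-1 library. Col12a1 fell by 1.77 on the log2 scale in the combination against vehicle (SE 0.302, adjusted p = 0.0226 in edgeR) and by 1.08 over both backgrounds (SE 0.207, adjusted p = 0.0228).

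Col16a1, a minor collagen near cell surfaces, was at 2.95 and 14.0 CPM in the combination, 8.08 and 4.45 with JQ1, 12.6 and 18.2 with anti-PD-1, and 18.4 and 12.7 in vehicle. Combination replicate 2 lay within the range of the libraries without JQ1, and the log2 value over both backgrounds was −1.04 (SE 0.411, adjusted p = 0.12 in edgeR). Col14a1 averaged 4.06 CPM and was highest in anti-PD-1 replicate 1 at 10.6 CPM. Col20a1 had 5 to 25 counts a library. Neither passed a test.

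Of type VI collagen, the beaded filament that surrounds cells, Col6a1 and Col6a2 varied more within groups than between them. Col6a1 was at 23.1 and 141 CPM in the combination, 57.1 and 20.4 with JQ1, 27.3 and 126 with anti-PD-1, and 51.0 and 37.3 in vehicle. Col6a2 was at 12.6 and 41.0 CPM in the combination, 42.5 and 20.75 with JQ1, 29.6 and 87.8 with anti-PD-1, and 34.8 and 24.3 in vehicle. Combination replicate 2 and anti-PD-1 replicate 2 were the highest for Col6a1, and neither gene separated any group. Col6a3 was steadier, at 27.4 and 38.9 CPM in the combination, 45.4 and 33.1 with JQ1, 65.5 and 37.0 with anti-PD-1, and 45.2 and 45.0 in vehicle. Both combination libraries lay below both vehicle libraries for Col6a3, as they did for 29.1% of all genes tested. Of the log2 values in the combination against vehicle, 0.92 (SE 0.97) for Col6a1, −0.10 (SE 0.653) for Col6a2 and −0.43 (SE 0.342) for Col6a3, none passed. The untested Col6a6 had 30 counts in all, 20 of them in JQ1 replicate 2.

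Multiplexins are basement membrane proteoglycans whose released ends are known to restrain vessel growth. Col18a1 was at 21.5 and 63.8 CPM in the combination, 68.4 and 27.0 with JQ1, 20.75 and 37.1 with anti-PD-1, and 40.7 and 22.9 in vehicle. Col15a1 was at 2.95 and 78.1 CPM in the combination, 10.1 and 6.62 with JQ1, 21.4 and 7.61 with anti-PD-1, and 18.1 and 7.57 in vehicle. The 2 combination libraries held the lowest and the highest Col15a1 value of the series, so its log2 value of 1.70 (SE 1.16, adjusted p = 0.377 in edgeR) rests on 1 library.

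The network collagen Col8a1, made in vessel walls and by corneal endothelium, was at 4.63 and 6.26 CPM in the combination, 9.75 and 7.76 with JQ1, 16.4 and 6.48 with anti-PD-1, and 7.71 and 6.77 in vehicle. Its partner Col8a2 had 6 and 1 counts in the combination, 17 and 0 with JQ1, 22 and 3 with anti-PD-1, and 1 and 1 in vehicle. Col10a1, the collagen of hypertrophic cartilage, had 1 to 21 counts a library.

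Among transmembrane collagens, Col23a1 was at 15.99 and 7.75 CPM in the combination, 5.98 and 7.93 with JQ1, 3.77 and 7.61 with anti-PD-1, and 5.12 and 2.93 in vehicle. Both combination libraries and both JQ1 libraries lay above both vehicle libraries, and the combination's log2 value was 1.53 (SE 0.524, adjusted p = 0.101 in edgeR). Col13a1 had 0 to 25 counts a library. Col7a1, which forms the anchoring fibrils under stratified epithelium, had 2 and 41 counts in the combination, 56 and 65 with JQ1, 117 and 261 with anti-PD-1, and 174 and 147 in vehicle. In CPM that was 0.842 and 6.76 in the combination, 5.87 and 5.67 with JQ1, 8.17 and 24.5 with anti-PD-1, and 13.3 and 8.43 in vehicle, with every library with JQ1 below every one without, and a log2 value over both backgrounds of −1.41 (SE 0.497, adjusted p = 0.0932 in edgeR). Col28a1, an untested collagen with von Willebrand factor A domains, had 0 and 1 counts in the combination, 7 and 6 with JQ1, 5 and 6 with anti-PD-1, and 2 and 11 in vehicle.

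**Figure D5:**
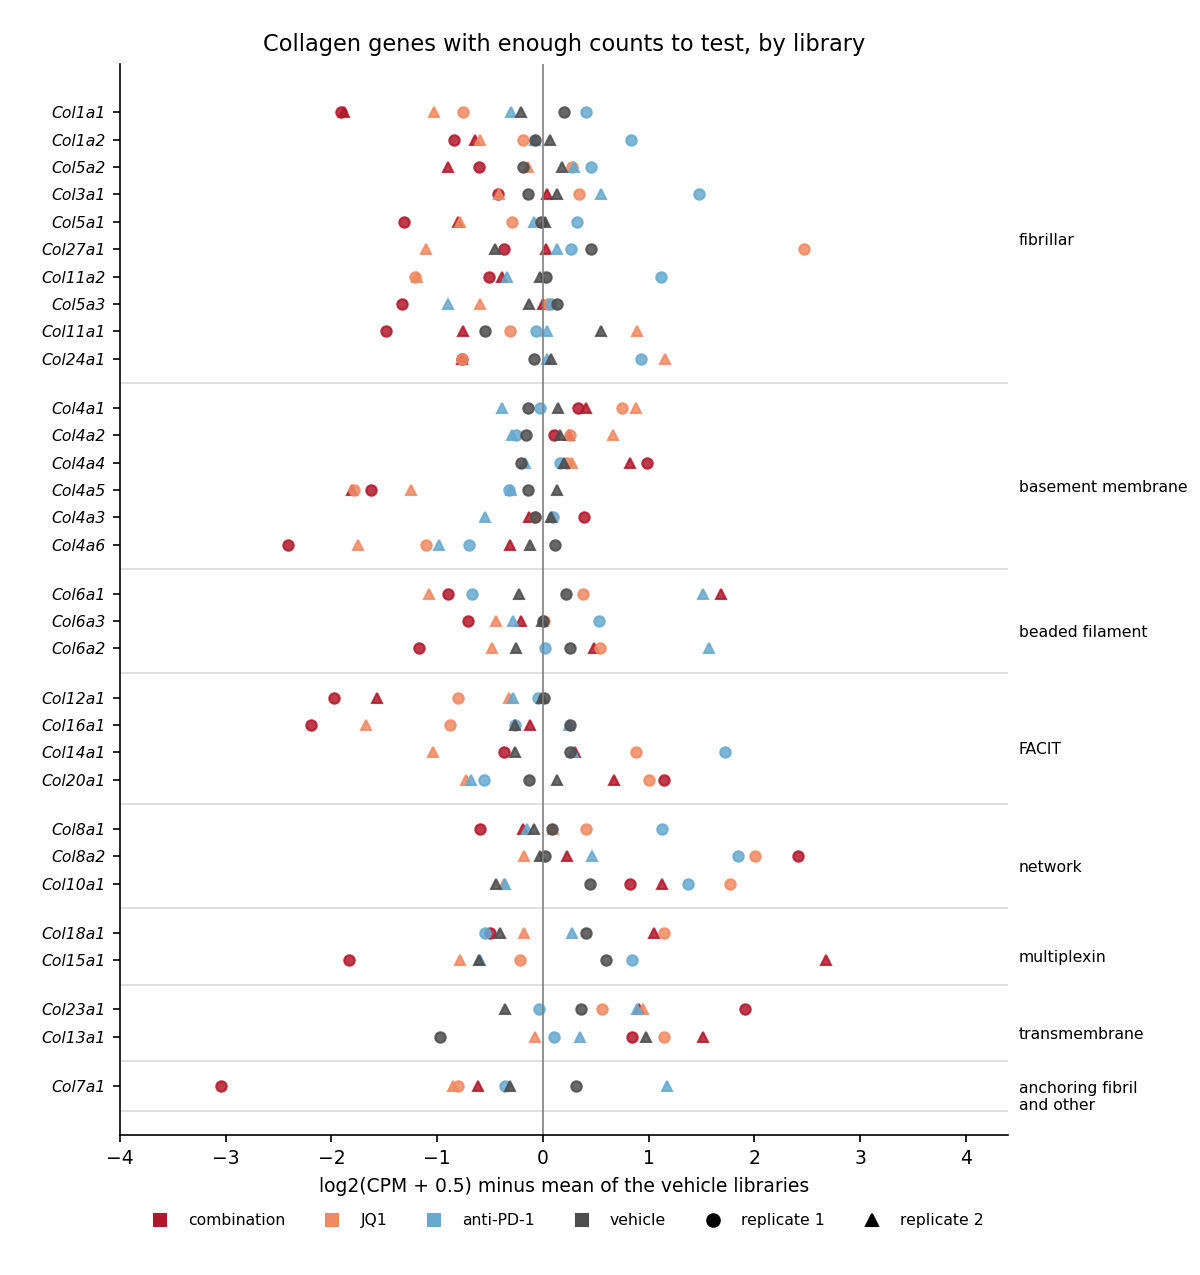
Log2(CPM + 0.5) of the 31 tested collagen genes in each library minus the mean of the vehicle libraries (x axis), grouped by class, with colours for the 4 groups and symbols for replicates. Fibrillar genes lie mostly left of 0 in the combination, Col4a5 and Col12a1 lie left in all libraries with JQ1, and Col6a1 and Col15a1 are split within the combination.

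JQ1 alone against vehicle called 0 of 31 members and 0% of all genes in edgeR. At an unadjusted p under 0.05 there were 6 members, among 1427 of all genes: Col4a5 (−1.52, SE 0.287), Col1a1 (−0.90, SE 0.296), Col4a1 (0.81, SE 0.249), Col11a2 (−1.46, SE 0.564), Col4a6 (−1.69, SE 0.659) and Col16a1 (−1.31, SE 0.578). DESeq2 called 1 member, Col4a5 (adjusted p = 0.00319), and limma voom called 0. Both JQ1 libraries lay below both vehicle libraries for 9 members and above for 5, where 22.9% and 26.3% of all genes did so.

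Anti-PD-1 alone against vehicle called 0 of 31 members and 0% of all genes in edgeR, and DESeq2 and limma voom called 0 members. Col3a1 was the 1 member with an unadjusted p under 0.05, at a log2 value of 1.09 (SE 0.376, adjusted p = 1), among 278 of all genes. Fibrillar genes had positive values in 8 of 10 (median 0.26) and basement membrane genes negative values in 6 of 6 (median −0.24), where 7033 of all 14085 genes were positive and 7050 negative. Libraries did not overlap for 5 members that were lower and 4 that were higher with anti-PD-1, where 16% and 14.4% of all genes did so.

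Averaged over both backgrounds, anti-PD-1 called 0 of 31 members in edgeR, with 0.0142% of all genes called, 2 members among 1417 of all genes at an unadjusted p under 0.05, and 0 members called by DESeq2 or limma voom. The interaction asks whether JQ1 did more or less in the presence of the antibody, and edgeR called 0 members and 0% of all genes. At an unadjusted p under 0.05 there were 4 members among 881 of all genes, Col5a2 (−1.21, SE 0.393), Col1a1 (−1.09, SE 0.417), Col12a1 (−1.07, SE 0.411) and Col3a1 (−1.27, SE 0.533), and DESeq2 and limma voom called 0. The lower values of Col1a1 and Col12a1 in the combination than with JQ1 alone were thus not shown to depart from the sum of the single effects.

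Genes that build, bind and break down collagen were counted in lists, whose counts stand beside 2.44% of all genes that rose and 2.36% that fell in the combination against vehicle. Of 20 tested genes of collagen biosynthesis (22 listed), 1 fell and none rose in the combination against vehicle: Serpinh1, the chaperone HSP47 that binds folded procollagen. Serpinh1 was at 35.8 and 26.7 CPM in the combination, 129.5 and 69.4 with JQ1, 161 and 78.6 with anti-PD-1, and 122 and 143 in vehicle, a fall of 2.09 on the log2 scale (SE 0.416, adjusted p = 0.0326 in edgeR). Its combination libraries lay below all others. Next by p were P3h4 at −1.40, Mia3, which exports procollagen, at 0.96, and Fkbp10 at −1.19, which did not pass. The list's median was −0.45, beside 0.07 for all genes, and 1 call in 20 is close to the 4.8% called over all genes. Of 12 tested genes of propeptide processing and crosslinking (14 listed), none was called, by edgeR or at an unadjusted p under 0.05. The smallest p-values were those of the transglutaminase Tgm2 at 0.59 (SE 0.289), the lysyl oxidases Loxl2 at 1.0 (SE 0.525) and Lox at 0.61 (SE 0.359), and the propeptide proteinase Bmp1 at −0.38 (SE 0.359).

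Among 15 tested proteins that bind fibrils, Thbs1, the matricellular protein thrombospondin, fell by 2.0 (SE 0.302, adjusted p = 0.0167 in edgeR) and Dcn, the fibril proteoglycan decorin, rose by 2.58 (SE 0.492, adjusted p = 0.0293). Sparc, which binds collagen, was at −0.97 (SE 0.269, adjusted p = 0.0611) and the proteoglycan Aspn at 2.07 (SE 0.619, adjusted p = 0.0737), and neither passed. Thbs1 was at 147 and 115 CPM in the combination, 274 and 199.5 with JQ1, 529 and 527 with anti-PD-1, and 412 and 633 in vehicle, and no library with JQ1 reached one without. Dcn was low everywhere, at 7.16 and 12.9 CPM in the combination against 1.99 and 1.43 CPM in vehicle. Against vehicle, the log2 value of Dcn was also positive with JQ1 alone (1.28, SE 0.479) and with anti-PD-1 alone (1.80, SE 0.476). Aspn was at 1.09 (SE 0.595) and 2.06 (SE 0.58) in the same 2 comparisons, and none of these values passed. Of 17 basement membrane partners, Lamc3, a laminin chain, rose by 3.0 (SE 0.756, adjusted p = 0.0498), and 16 of 17 had positive values (median 0.20), where 7384 of all 14085 genes did (median 0.07). The laminin chains Lamc1 at −0.68 and Lama2 at 0.92 and the matricellular Sparcl1 at 0.71 did not pass. Over both backgrounds JQ1 gave a rise of Lama1, another laminin chain, by 1.84 on the log2 scale (SE 0.433, adjusted p = 0.035 in edgeR), where 4.22% of all genes rose, and the call was lost with sex as a term and without any 1 library other than combination replicate 2.

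Of 15 tested genes of collagen breakdown, Mrc2, the receptor that takes up collagen fragments, fell by 2.16 (SE 0.394, adjusted p = 0.0261 in edgeR). In the same list Timp3, an inhibitor of metalloproteinases held in the matrix, rose by 1.55, and Ctsb, the lysosomal protease cathepsin B, rose by 1.48, while the gelatinase Mmp2 was at 0.72 and did not pass. Of 10 tested collagen receptors, Antxr1, which binds type I and type VI collagen, fell by 2.07 (SE 0.359, adjusted p = 0.0232 in edgeR). The next receptors by p lay on the other side, the integrin chain Itga1 at 1.27 (SE 0.381, adjusted p = 0.0737 in edgeR) and the discoidin receptor Ddr2 at 0.99 (SE 0.382, adjusted p = 0.133), and Itgb1 was at −0.39, with none of these passing. Of 18 tested genes of the TGF-beta axis, the best known inducer of fibrillar collagens, 2 fell and none rose: the ligand Tgfb3 by 2.17 and the secreted target Tgfbi by 1.81. The ligand Tgfb1 at −1.02 and the signal carrier Smad2 at −0.86 did not pass. Over both backgrounds that list had 3 falls, where 4.05% of all genes fell, the third being Smad2 at −0.81, whose call was kept without either combination library and lost without any 1 of the other 6. Tgfb3 was at 3.79 and 7.25 CPM in the combination, 16.8 and 13.4 with JQ1, 26.9 and 31.3 with anti-PD-1, and 25.4 and 26.7 in vehicle.

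Summed markers of other cell types stand beside these collagen values. Smooth muscle and pericyte markers (12 listed, 10 tested) summed to 167 to 197 CPM in the combination, 210.4 to 233 with JQ1, 271 to 383 with anti-PD-1 and 359 to 389 in vehicle. Of them Acta2, the actin of smooth muscle and activated fibroblasts, fell by 2.44 in the combination against vehicle and Rgs5, a pericyte gene, rose by 1.49. Fibroblast markers (12 listed, 9 tested) summed to 62.3 to 68.6 CPM in the combination, 28.2 to 42.9 with JQ1, 37.8 to 47.3 with anti-PD-1 and 13.7 to 27.1 in vehicle, and Pdgfra and Dcn rose. Of the 9 tested, 7 had positive and 2 negative log2 values in the combination against vehicle. The negative ones were Tcf21 at −0.88 (SE 1.03) and Fbln1 at −0.66 (SE 0.834), and neither passed. Over both backgrounds Fbln1 was at −1.60 (SE 0.546) and did not pass. Lum, a defining fibroblast marker, had 0 counts in combination replicate 1 and in both vehicle libraries. The fibrillar sum and the fibroblast sum were thus on opposite sides between the combination and vehicle.

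Endothelial markers (12 listed, 12 tested) summed to 276 to 318 CPM in the combination, 229 to 249 with JQ1, 215 to 217 with anti-PD-1 and 132 to 184 in vehicle, and Pecam1 and Flt1 rose. Alveolar type 2 markers, surfactant genes among them, were at 9162 to 11160 CPM in the combination, 6511 to 8126 with JQ1, 8235 to 9737 with anti-PD-1 and 8227 to 11900 in vehicle, where Napsa rose and Nkx2-1 and Etv5 fell in the combination against vehicle. Striated muscle markers (9 listed, 5 tested), led by Myh6, were at 75.5 to 173 CPM in the combination, 268 to 364 with JQ1, 355 to 608 with anti-PD-1 and 403 to 560.4 in vehicle, with Nppa at 0 in all libraries. Myh6 fell by 2.18 in the combination against vehicle (SE 0.404, adjusted p = 0.0279 in edgeR). Mesothelial markers (6 listed, 1 tested) were at 51.8 to 81.3 CPM in the combination, 26.1 to 41.0 with JQ1, 0.908 to 15.3 with anti-PD-1 and 8.94 to 17.1 in vehicle. The tested one, Msln, had a log2 value of 2.37 (SE 0.973) in the combination against vehicle and did not pass. General epithelial markers were at 947 to 1244 CPM in the combination and 1123 to 1341 in vehicle, alveolar type 1 markers at 1019 to 1165 and 1209 to 1481, and macrophage markers at 246 to 493 and 299.7 to 452. Schwann cell markers (6 listed, 2 tested) were at 34.9 to 61.1 and 33.0 to 36.2, and basal and squamous epithelial markers (7 listed, 3 tested) at 4.94 to 32.0 and 31.8 to 68.3. Of the 10 tested alveolar type 1 markers, Vegfa fell by 1.36 in the combination against vehicle (SE 0.297, adjusted p = 0.0361 in edgeR), and 5 had positive values. Cartilage markers (9 listed, 2 tested) were at 8.84 to 20.4 CPM in the combination and 43.2 to 51.0 in vehicle, with Matn1 and Cnmd at 0 in all libraries. The 2 tested had log2 values of opposite sign there, Sox9 at −1.71 (SE 0.561) and Acan at 3.05 (SE 2.16), and neither passed. The part of these cell types, and of the lower protein-coding share of the combination libraries, in the collagen results was not tested by these sums. With protein-coding share as a term in the fit, a choice made after seeing the data, edgeR called 0 of all 14085 genes in either comparison. None of the 3 and none of the 5 collagen calls was thus kept. Col1a1 was at −2.74 and −2.0, Col12a1 at −1.08 and −0.63, and Col4a5 at 0.14 and −0.24 in these 2 comparisons. That share followed the groups, at 44.9% on average in the combination, 63.5% with JQ1, 72.5% with anti-PD-1 and 73.4% in vehicle. With 2 libraries a group, share and treatment cannot be told apart. All 3 calls in the combination were also lost without combination replicate 2, vehicle replicate 1 or vehicle replicate 2, with log2 values between −2.12 and −1.62. Over both backgrounds, Col1a1 and Col4a5 lost the call without vehicle replicate 2 (adjusted p = 0.0507 and 0.0675 in edgeR), and Col12a1 lost it without any 1 of the 4 anti-PD-1 and vehicle libraries (adjusted p = 0.0572 to 0.101). In the combination against vehicle, leaving out combination replicate 2 left 15 calls over all genes, leaving out vehicle replicate 1 left 19 and leaving out vehicle replicate 2 left 7. Of the 10 pathway genes called there, none was kept without combination replicate 2 or vehicle replicate 2, or with protein-coding share as a term, and 1 (Thbs1) without vehicle replicate 1. With that term Dcn was at −0.83 and Ctsb at −1.09, the opposite sign. With sex as a term 7 of the 10 were kept, the 3 lost being Ctsb, Lamc3 and Serpinh1. Of the 10 other marker genes called in the combination, 3 were kept with sex as a term and 0 without combination replicate 2, vehicle replicate 1 or vehicle replicate 2.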

How the data were processed

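Per the labels' protocols, RNA of frozen tumour nodules went into TruSeq RNA Access libraries, whose probes capture coding regions. GRCm38, mm10, STAR, featureCounts, bcl2fastq and DESeq2 appear, per the submitters' processing notes, with neither version nor order. The annotation and the use of strand were not given in the sources used here. As deposited, the raw table gives unnormalized whole counts for each symbol and library, whose totals are the depth of a library. The normalized table was not used here.

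Groups follow the treatment labels, with replicates numbered in accession order. Genes were tested with edgeR 4.0.16 in R 4.3.3 (filterByExpr, TMM, robust quasi-likelihood F test) in 1 fit of 8 libraries with 4 residual degrees of freedom and a biological coefficient of variation of 0.332. P-values were adjusted by Benjamini-Hochberg over the 14085 tested genes of each of 6 comparisons, with calls at 0.05, and "rose" and "fell" mark calls. A prior count of 0.125 enters the log2 fold changes. The steps were tested on simulated data. Positions and coding length (the longest coding sequence) come from GENCODE vM21, which matched 44 of 44 members, and promoters from RefSeq. Chain ratios use counts plus 0.5.

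Genes given library by library are those called in any comparison, the 2 most abundant of each class, and partner chains. Of pathway lists, called genes and those with the smallest p are named, up to 4. The members, classes and lists were chosen with earlier results of these data known. Alternatives were RLE factors, protein-coding library sizes, no filter, limma 3.58.1 voom, DESeq2 1.42.0, a minimum mean count of 50, a sex term, a fit of only the groups compared, and leaving out each library. The term for protein-coding share was added after seeing the data. The alternatives for listed genes were also added then. A further result, on a withheld gene, is not reported here.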

Additional observations from a re-analysis of the deposited data

Results flagged for a closer look

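Both anti-PD-1 libraries lay above both vehicle libraries for Col5a2, at 89.0 and 79.8 CPM with anti-PD-1 and 57.0 and 73.7 CPM in vehicle, while both combination libraries lay below both JQ1 libraries, at 42.5 and 34.6 CPM in the combination and 78.8 and 58.8 CPM with JQ1. The interaction was −1.21 on the log2 scale (SE 0.393) and did not pass (adjusted p = 0.745 in edgeR).

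For Col8a1 both JQ1 libraries lay above both vehicle libraries, at 9.75 and 7.76 CPM with JQ1 and 7.71 and 6.77 CPM in vehicle, while both combination libraries lay below both anti-PD-1 libraries, at 4.63 and 6.26 CPM in the combination and 16.4 and 6.48 CPM with anti-PD-1. The interaction was −1.32 (SE 0.662) and did not pass (adjusted p = 0.776 in edgeR).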

How the results depend on the processing

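In the combination against vehicle, the 3 called collagens of 31 tested became 6 of 39 with no filter on low counts (7.54% of all genes called, against 4.8%) and 0 with protein-coding share as a term, and leaving out 1 library gave 0 to 3. For JQ1 over both backgrounds the 5 of 31 became 10 of 39 with no filter (9.56% of all genes called, against 8.28%), 9 of 31 with DESeq2 (15.1%) and 0 with protein-coding share as a term, and leaving out 1 library gave 0 to 4. JQ1 against vehicle, with 0 calls, had 1 with no filter and 1 with DESeq2, Col4a5 in both. The cause of these changes was not tested, and protein-coding share cannot be told apart from treatment with 2 libraries a group. With protein-coding share as a term, Col4a5 in the combination against vehicle turned to 0.14, Ctsb to −1.09, Dcn to −0.83, Myh6 to 0.56, Napsa to −0.93, Nkx2-1 to 0.55 and Vegfa to 0.064, and over both backgrounds Ctsb turned to −0.54. A minimum mean count of 50 gave 4 of 21 and 5 of 21 members (9.25% and 13.4% of all genes), with Col4a4 gained as a rise in both comparisons and Col5a1 lost over both backgrounds. Under RLE factors, protein-coding library sizes and limma voom, all 3 and all 5 called genes were kept. RLE factors also gained Col1a2 as a fall over both backgrounds, giving 6 of 31 members (8.7% of all genes). The sex term kept 3 of 3 and 4 of 5. The other 3 comparisons had 0 calls under every alternative run. A fit of only the groups compared was not run for averaged effects and the interaction, which need all 4 groups. Where an arm held 1 library, that library was assumed to vary like the others. No paired analysis was possible because the labels give no replicate numbers. With 2 libraries a group and 2719816 counts in the shallowest, genes under about 50 counts in all carry little information.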
